A study of Arabidopsis thaliana with 72 samples.

Results

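Gibberellin-deficient ga1-5 seedlings and brassinosteroid-deficient det2-1 seedlings of Arabidopsis thaliana were compared directly, both after mock treatment. The comparison took every array titled as ga1-5 mock or det2-1 mock, which gave 12 of the 72 arrays of the series, 6 ga1-5 and 6 det2-1. Per the labels, all were made from 7-day-old seedlings grown at 22 °C and mock-treated at 3 lengths, 30 min, 1 h and 3 h, with 2 arrays per genotype and time. Seedlings of the same genotypes treated with hormone served as a second, separate set of arrays, with 6 of ga1-5 given 1 µM gibberellin A3 (GA3) and 6 of det2-1 given 10 nM brassinolide (BL), and 6 Col-0 mock arrays are quoted for level only. The labels do not state the accession in which either mutant line was kept. They also place each genotype and time in a lettered set of its own (6 sets for the 12 arrays), so genotype, line background and set cannot be told apart.

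Gibberellins and brassinosteroids are growth hormones, and loss of either gives dwarf plants. GA1 encodes an early enzyme of gibberellin synthesis, and DET2 encodes a steroid reductase of brassinosteroid synthesis. Gibberellin bound to its GID1 receptors leads, through the F-box protein SLY1, to destruction of the DELLA proteins, which repress growth. Brassinosteroid acts through a receptor kinase at the cell surface and ends in transcription factors that raise cell wall loosening genes such as expansins and xyloglucan-modifying XTH enzymes. No probe set used here is named for GA1 or DET2, so the genotype labels were not checked on the mutated genes.

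Transcript levels were deposited as signal intensities of the probe sets of the ATH1 array. Arrays were brought to the same 2% trimmed mean, 2252, and levels below are these scaled signals. The deposited trimmed means were 1953 to 2983 on ga1-5 arrays and 1839 to 2422 on det2-1 arrays, against 887 to 1172 on Col-0 mock arrays. Scaled arrays correlated at 0.961 to 0.982 within ga1-5 and at 0.959 to 0.977 within det2-1, and at 0.882 to 0.913 between the genotypes. Differences are ga1-5 minus det2-1 in log2(signal + 93), which understates the change of dim probe sets, from a limma fit with time as a block. A probe set was called at a Benjamini-Hochberg adjusted p under 0.05. Nothing in the labels says that replicate arrays were separate cultures, so p-values reflect only array-to-array spread, which may be technical, and precision is limited by having 6 arrays per genotype. Whole seedlings were measured, so fewer cells of a type and less RNA per cell cannot be told apart.

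The 2 dwarf mutants differed at a large share of their transcripts. Of 13881 probe sets tested, 5619 were called (40.5%), 3043 higher in ga1-5 (21.9%) and 2576 lower (18.6%). The median difference over all of them was 0.02 and the median SE 0.11. Differences of at least 1 on the log2 scale were called for 419 probe sets higher in ga1-5 (3.02%) and 449 lower (3.23%), and in 836 of these 868 the 6 ga1-5 arrays did not overlap the 6 det2-1 arrays. Non-overlap was found in 24.1% of all tested probe sets, with all ga1-5 arrays above in 13% and all below in 11%. Without rescaling, 3813 probe sets were higher and 1127 lower in ga1-5, and the median of all moved to 0.20, so small differences of either sign depend on the scaling.

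**Figure D1:**
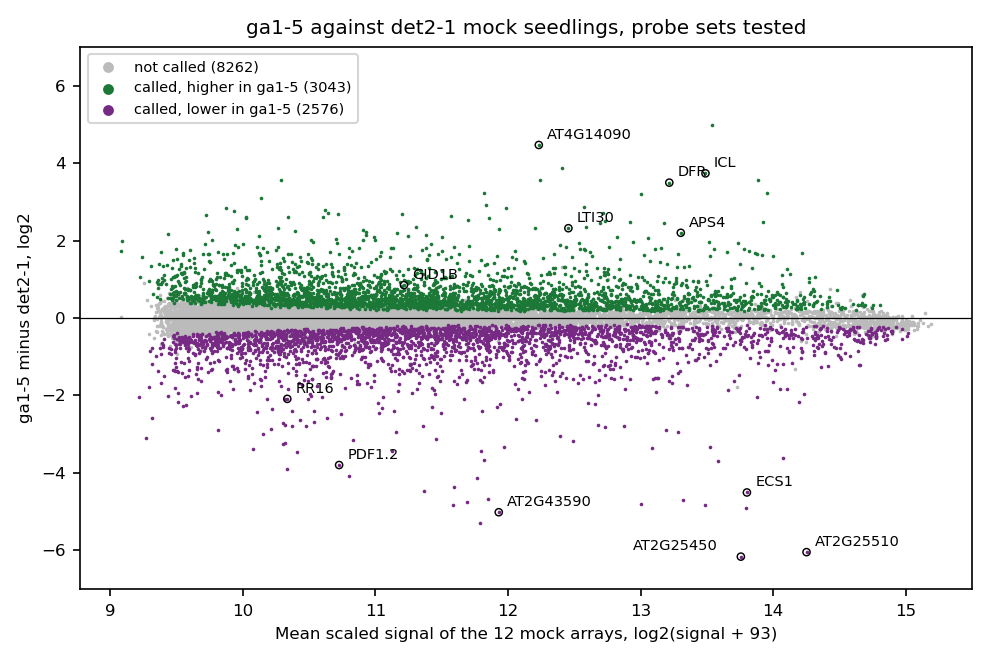
Difference between ga1-5 and det2-1 mock seedlings (vertical axis, log2) against mean scaled signal of the 12 arrays (horizontal axis, log2) for the 13881 tested probe sets. Green points were called higher in ga1-5 (3043) and purple points lower (2576), with named genes circled. AT2G25450 (-6.16) and AT2G25510 (-6.05) lie lowest among the circled genes and AT4G14090 (4.47) highest.

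The tested genes of flavonoid and anthocyanin synthesis, which make the red and purple pigments of stressed leaves and stems, were higher in ga1-5. All 5 tested members of the list were called higher and none lower, against 21.9% called higher over all probe sets, with a median difference of 2.69 beside 0.02 over all probe sets. The lists here and below were chosen with earlier results of these data known. A probe set could also pass the filter on the arrays of a single genotype, so list counts are descriptions. DFR, the dihydroflavonol reductase at the entry to anthocyanin synthesis, had a signal of 14590 to 19375 (median 17574) on ga1-5 arrays and 1143 to 1844 (median 1439) on det2-1 arrays. Its lowest ga1-5 array lay far above its highest det2-1 array, with a difference of 3.50 (SE 0.09, n = 6 arrays each, limma adjusted p = 2.86e-13). UF3GT, a flavonoid glycosyltransferase, ranged from 5681 to 7366 (median 6121) in ga1-5 and from 392 to 1238 (median 790) in det2-1. AT5MAT, which adds a malonyl group to anthocyanins, ranged from 2532 to 3497 (median 2715) in ga1-5 and from 291 to 517 (median 332) in det2-1. Neither gene's arrays overlapped between genotypes, and their differences were 2.91 (SE 0.18) and 2.69 (SE 0.14). The flavonol glycosyltransferases UGT78D2 and UGT78D1 were higher by 1.19 and 0.52, and only UGT78D1 had overlapping arrays. CHIL, a chalcone isomerase-like gene outside the list and named after its values were seen, was higher by 1.26 (SE 0.17).

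The largest difference upward among probe sets of a single named gene was that of AT4G14090, which the annotation used here gives by locus only. Its signal was 7365 to 10427 (median 9027) in ga1-5 and 103 to 725 (median 315) in det2-1, a difference of 4.47 (SE 0.23, limma adjusted p = 8.37e-10). ICL, the isocitrate lyase of the glyoxylate cycle that turns seed oil into sugar in young seedlings, followed. It had 11023 to 31955 (median 21658) in ga1-5 and 444 to 5462 (median 1266) in det2-1, with no overlap, and differed by 3.74 (SE 0.42). Every det2-1 array also lay above the Col-0 mock arrays, which had 39.2 to 340.6. The other members tested with ICL as seed reserve genes did not move with it, as the oil-body gene OLEO3 was at -0.28 and the lipase gene SDP1 at 0.01, and neither passed. Among loci without a gene name, AT1G48660 was higher by 3.57, AT2G47780 by 3.22 and AT3G58060 by 3.10. Besides these and DFR, the other 6 of the 12 largest rises lay between 2.69 and 2.91, UF3GT and AT5MAT among them. Absence of overlap between genotypes was part of the rule that chose these 12.

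Dehydration and abscisic acid response genes were also higher in ga1-5. Of 6 tested members, 5 were called higher and none lower, against 21.9% higher over all probe sets, with a median of 1.49. LTI30, a dehydrin that accumulates in cold and drought, had 7367 to 13640 (median 8649) in ga1-5 and 1373 to 2028 (median 1749) in det2-1. COR47, another dehydrin, had 20126 to 26102 (median 23381) in ga1-5 and 6299 to 8832 (median 7447) in det2-1. Both sets of arrays were separate, and the differences were 2.32 (SE 0.12, limma adjusted p = 1.32e-09) for LTI30 and 1.63 (SE 0.10) for COR47. SAG29, a sugar transporter gene of senescing leaves, was higher by 2.22, and COR15A, a chloroplast cold-protection protein, by 1.36. XERICO, higher by 0.88, was the remaining call and is counted again among the DELLA-induced genes below. COR15B, a close relative of COR15A, was at -0.30 and did not pass (adjusted p = 0.19).

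**Figure D2:**
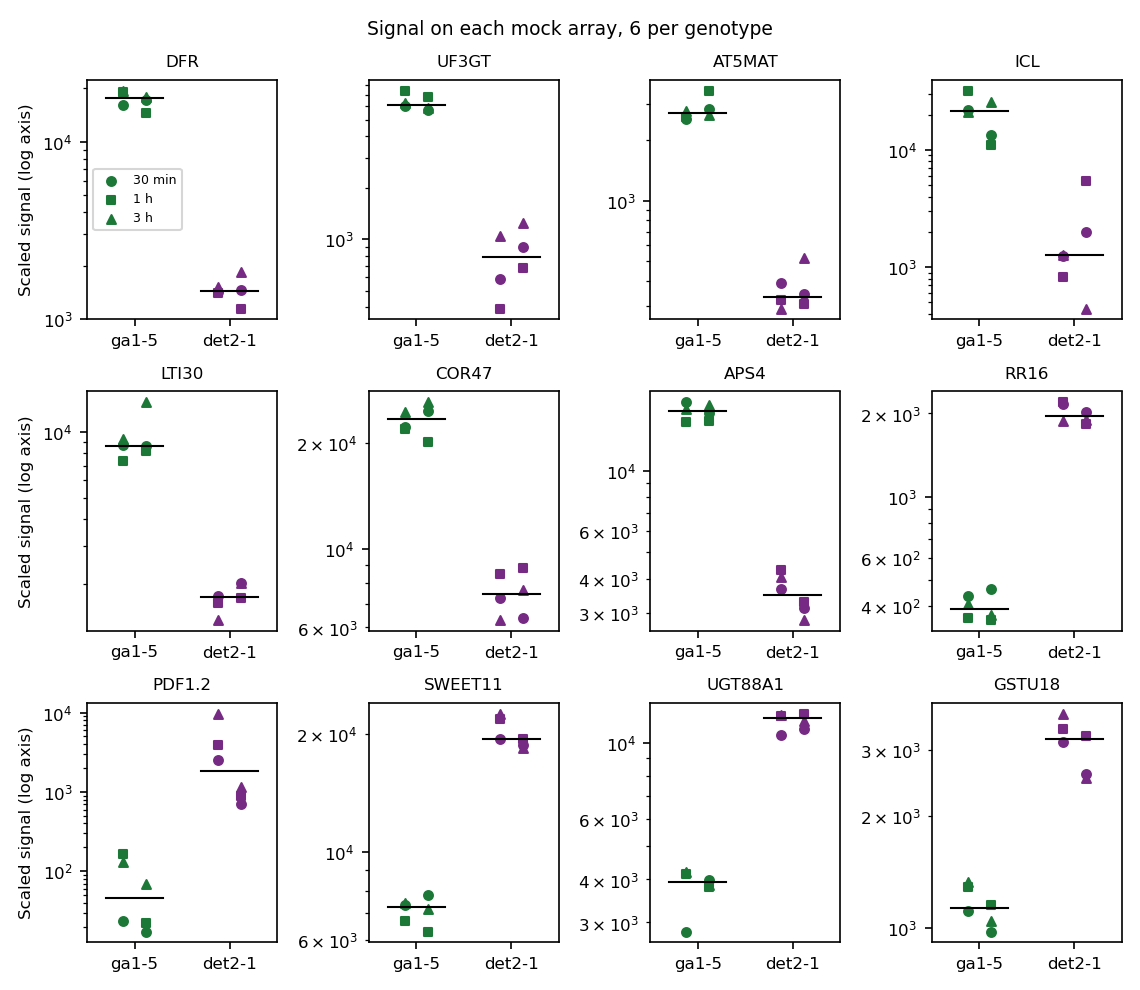
Scaled signal of 12 genes on each mock array (vertical log axes, each panel with its own range), with ga1-5 left in green and det2-1 right in purple. Marker shape gives the time and the bar the median of 6 arrays. In every panel the genotypes are separate, with DFR, UF3GT, AT5MAT, ICL, LTI30, COR47 and APS4 higher in ga1-5 and RR16, PDF1.2, SWEET11, UGT88A1 and GSTU18 lower.

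The differences downward reached further than those upward. AT2G25450 had a signal of 121 to 486 (median 340) in ga1-5 and 22603 to 32357 (median 26238) in det2-1, a difference of -6.16 (SE 0.18, limma adjusted p = 2.40e-12). AT2G25510 had 409 to 625 (median 474) in ga1-5 and 33500 to 48535 (median 35967) in det2-1, a difference of -6.05 (SE 0.09). Both loci were thus among the bright probe sets in det2-1 and dim ones in ga1-5, and Col-0 mock arrays, at 18674 to 34356 and 40355 to 61877, lay near det2-1. AT2G43590 (-5.02), AT3G16670 (-4.70), AT5G45500 (-4.46) and AT1G23130 (-4.09) likewise had Col-0 medians nearer to det2-1 than to ga1-5. ECS1 was lower by a difference of -4.50, with 711 to 1733 (median 1122) in ga1-5 and 21323 to 34032 (median 26724) in det2-1. AT1G20390, annotated as a pseudogene, had a median of 96.5 and at most 127.7 in ga1-5 and a median of 1783 and at least 1341 in det2-1. Here Col-0, at 363 to 610, lay between the mutants, and its difference was -3.38. AT4G33720 (-3.33) had 1447 to 2857 (median 1816) in ga1-5 and 7957 to 30388 (median 24366) in det2-1, and its Col-0 median, 2505, lay nearer to ga1-5.

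Single genes from short lists of defence and hormone response were lower in ga1-5. PDF1.2, an antifungal defensin raised by jasmonate and ethylene, had 17.4 to 165.3 (median 46.4) in ga1-5 and 710 to 9626 (median 1835) in det2-1. The arrays did not overlap despite the wide det2-1 range, and the difference was -3.80 (SE 0.47, limma adjusted p = 1.07e-05). OPCL1, the other tested member of the jasmonate list, was at -0.32 and did not pass (adjusted p = 0.060). PDF1.2b, a near copy whose probe set may also bind other members, was at -2.40. RR16, a type-A response regulator and the only tested member of the cytokinin list, had 357 to 462 (median 390) in ga1-5 and 1830 to 2194 (median 1957) in det2-1. That gave a difference of -2.09 (SE 0.11), with tight values in both genotypes. The 3 tested members of the ethylene list, RTE1 (-0.61), ARL (-0.45) and EIN3 (-0.43), were all called lower, beside 18.6% over all probe sets. On the deposited scale only RTE1 was called. ARL is counted again among the brassinosteroid-responsive genes below.

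2 of the gibberellin receptors were called, in opposite directions. GID1B, one of the gibberellin receptors, had 2457 to 3283 (median 2995) in ga1-5 and 1295 to 1893 (median 1633) in det2-1, a difference of 0.85 (SE 0.11, limma adjusted p = 1.30e-05). GID1C, another receptor, went the other way, with 390 to 913 (median 672) in ga1-5 and 1039 to 1279 (median 1173) in det2-1, a difference of -0.78 (SE 0.18, adjusted p = 0.00228). Neither receptor had overlapping arrays, whereas GID1A, the remaining receptor, was at 0.10 and did not pass (adjusted p = 0.39). The F-box genes SLY1 and SLY2 were higher by 0.45 and 0.64. In all, 3 of 7 tested receptors and regulators were called higher and 1 lower, with a median of 0.13, while 21.9% and 18.6% of all probe sets were. XERICO, a ring-finger gene induced by DELLA proteins, had 3137 to 3796 (median 3595) in ga1-5 and 1585 to 2235 (median 1792) in det2-1. Its difference was 0.88 (SE 0.09, adjusted p = 1.02e-06). GID1B and XERICO were the 2 of 4 DELLA-induced genes called higher, and none was lower. Over all probe sets 40.5% were called in either direction, a share near this, and 21.9% were called higher.

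Of 10 brassinosteroid-responsive growth genes, 5 were called higher in ga1-5 and 3 lower, with a median of 0.41, beside 21.9% higher and 18.6% lower over all probe sets. XTH19, an enzyme that cuts and rejoins xyloglucan, had 3987 to 4858 (median 4440) in ga1-5 and 988 to 2207 (median 1663) in det2-1. No arrays overlapped and the difference was 1.42 (SE 0.15, limma adjusted p = 2.46e-06). Col-0 mock arrays, at 3418 to 6200, lay nearer to ga1-5 than to det2-1 for XTH19. EXLA1, an expansin-like gene, was higher by 0.81, XTH33 by 0.73 and EXO, a growth-promoting extracellular protein, by 0.60. The 3 falls of this list were ARL (-0.45), XTH20 (-0.40) and BRH1, which was at -0.18 without rescaling. Of the 8 XTH genes tested, 5 were higher and 3 lower (median 0.63), with XTH32 at 1.04, XTH16 at 0.83 and EXGT-A3 at -0.67. The calls of XTH18, which was higher, and of XTH20 and XTH26, which were lower, were each lost under most of the other settings. Without a filter on dim probe sets, for example, their limma adjusted p were 0.068, 0.081 and 0.057. Of 12 expansins, 5 were higher and 2 lower (median 0.37), led by EXPA20 (1.48), EXPB3 (0.69) and EXPA4 (0.64), with EXPB1 (-0.67) and EXLB1 (-0.42) lower. Without rescaling, none of the falls among the brassinosteroid-responsive genes and the expansins was called, with 5 and 6 called higher.

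**Figure D3:**
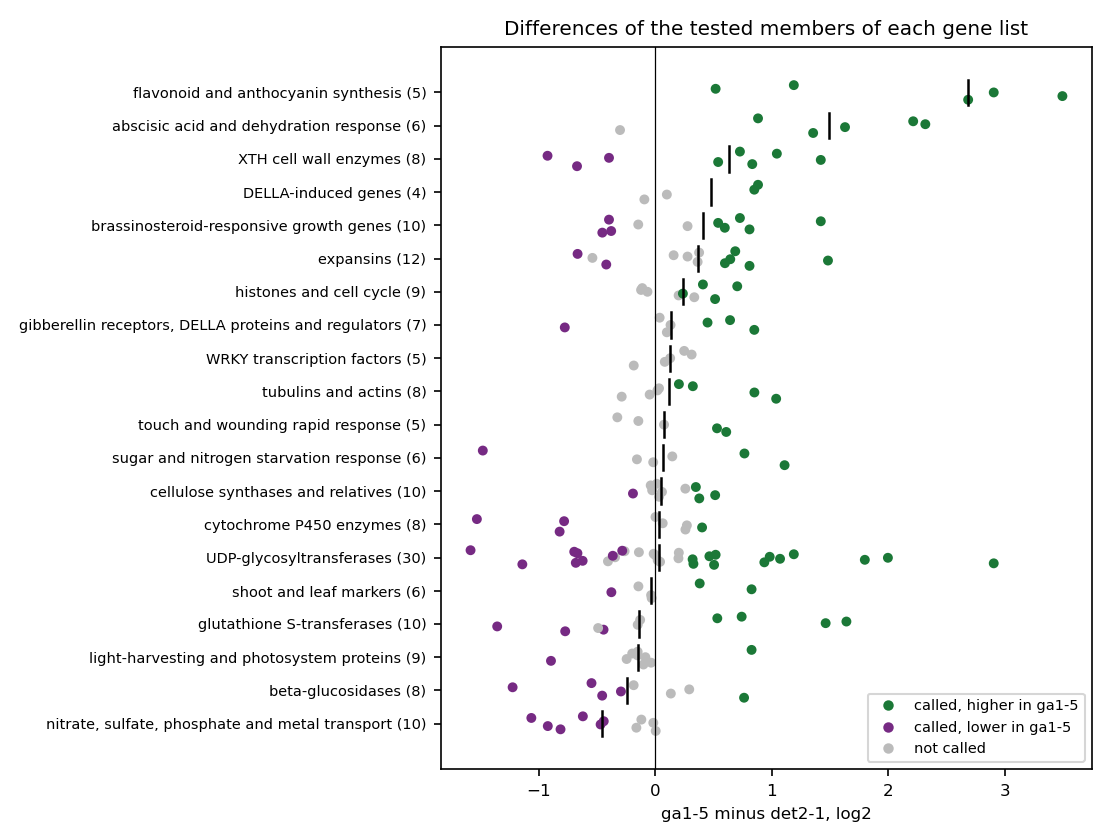
Differences between ga1-5 and det2-1 (horizontal axis, log2) for the tested members of the 20 gene lists with at least 4, ordered by their median (black bars), with the number of tested members in brackets. Green points were called higher in ga1-5, purple lower, and grey were not called. The flavonoid list has the highest median, 2.69, and the list of nutrient transporters the lowest, -0.46.

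Transport and primary metabolism genes included both large rises and large falls. APS4, an ATP sulfurylase that starts sulfate assimilation, had 15143 to 17852 (median 16622) in ga1-5 and 2818 to 4291 (median 3480) in det2-1, a difference of 2.2 (SE 0.10, limma adjusted p = 2.55e-10). APS3, another ATP sulfurylase and named after its values were seen, was lower, with a difference of -1.01 (SE 0.11). The 2 isoforms thus moved in opposite directions. Of 10 nutrient transport genes, 6 were called lower and none higher (18.6% of all probe sets were lower), with a median of -0.46, and on the deposited scale 3 were. GTR2, a glucosinolate transporter, had 2707 to 3456 (median 3015) in ga1-5 and 5955 to 6870 (median 6514) in det2-1, with a difference of -1.06. The nitrate and peptide transporter family gave AT2G26690 (-0.92), AT1G59740 (-0.81) and AT3G21670 (-0.47), while the metal genes ZIP6 and FRO1 were at -0.62 and -0.44. The calls of AT3G21670, ZIP6 and FRO1 were those lost on the deposited scale. SWEET11, a sucrose exporter that loads the phloem, had 6293 to 7807 (median 7260) in ga1-5 and 18447 to 22483 (median 19421) in det2-1, a difference of -1.48 (SE 0.08). SWEET2, a sugar transporter, was lower at -1.85 and ATSPS4F, a sucrose-phosphate synthase, at -1.44, while SWEET1 was higher by 0.77. APS4, SWEET2 and ATSPS4F are outside the lists and were named after their values were seen. Of 6 sugar and nitrogen starvation genes, 2 were called higher and 1 lower (median 0.06), beside 21.9% and 18.6% over all probe sets. The starch genes APL3, a subunit of ADP-glucose pyrophosphorylase, and SBE2.2, a branching enzyme, were higher by 1.11 and 0.97, and SBE2.2 was named after its values were seen.

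Families of enzymes that modify small molecules held calls in both directions, beside 21.9% higher and 18.6% lower over all probe sets. Of 30 UDP-glycosyltransferases, 12 were called higher and 8 lower, with a median of 0.03. UGT88A1 had 2823 to 4206 (median 3923) in ga1-5 and 10516 to 12114 (median 11765) in det2-1, a difference of -1.59 (SE 0.08, limma adjusted p = 7.59e-10), while UGT73C1 was higher by 2.0, UGT72B3 by 1.80 and UGT72E2 by 1.07. IAGLU was lower at -1.14. Among 10 glutathione S-transferases 4 were higher and 3 lower, including GSTU25 (1.64) and GSTU22 (1.46) on one side and GSTU18 (-1.36) on the other. Of 8 cytochrome P450 genes 1 was higher and 3 lower, with CYP71B5 at -1.53 and CYP71B23 at -0.82, a share called near the 40.5% over all probe sets. Of 8 beta-glucosidases 1 was higher, BGLU15 (0.76), and 4 lower, with BGLU44 at -1.22. None of 5 WRKY transcription factors was called, ZAP1 being at 0.25 and WRKY6 at 0.31.

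Genes outside these lists named for their size, after their values were seen, were FACT, a caffeoyl transferase of wax and suberin (1.84), NANA (1.86) and CP1 (1.72), all higher, and PIP, a proline iminopeptidase (-2.23), FDH (-1.83) and SBT4.12 (-1.49), all lower. Short lists gave single calls. IAA20, an auxin-response repressor, was higher by 0.94, the clock gene GI by 1.01, the bHLH gene SPT by 0.97 and the class III peroxidase gene AT5G64120 by 1.72.

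Cytoskeleton and cell division genes were called at a share near that over all probe sets, with every call higher in ga1-5. Of 8 tubulins and actins 4 were called higher and none lower, with a median of 0.12, led by ACT11 (1.04, SE 0.09) and TUB1 (0.85, SE 0.09). ACT11 had 3047 to 3906 (median 3432) in ga1-5 and 1417 to 1883 (median 1652) in det2-1. Of 9 histone and cell cycle genes 4 were higher and none lower, including HTR12, the centromeric histone (0.70), and AUR1, a mitotic kinase (0.51). Touch and wounding genes gave 2 calls upward of 5, PUB22 (0.53) and CML38 (0.61), both with overlapping arrays. Of 10 cellulose synthase genes and relatives 3 were higher and 1 lower, with CSLD2 at 0.35 and ATCSLC08 at 0.38. The shares called in either direction in these 4 lists were near the 40.5% over all probe sets. Over all probe sets 21.9% were called higher and 18.6% lower.

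Markers of organs and of photosynthesis are given beside the 40.5% called over all probe sets. Of 6 shoot and leaf markers 2 were higher and 1 lower, near that share, with STOMAGEN, a stomatal peptide, at 0.38, and PRK, a Calvin cycle enzyme, at -0.38. PRK had 24008 to 32550 (median 29410) in ga1-5 and 33209 to 41213 (median 37055) in det2-1. On the deposited scale PRK was at -0.18 and its call was lost (limma adjusted p = 0.093). Of 9 light-harvesting and photosystem genes 2 were called, below that share, and LHCB4.2 was lower (-0.90, SE 0.11) and RCA, the activase of Rubisco, higher (0.83, SE 0.30). RCA overlapped between genotypes, with 12415 to 25178 in ga1-5 and 3127 to 20690 in det2-1. Its call was lost in 13 of 24 other settings, for example without the variance trend (adjusted p = 0.0674). Of 3 root markers PYK10 was lower (-0.55, adjusted p = 0.032), and this call was lost without a filter on dim probe sets (adjusted p = 0.052). Of 67 probe sets of the chloroplast genome 18 were called (26.9%), 17 of them lower, with a median of -0.18, but on the deposited scale 8 were higher and 8 lower. The share of cells of each organ in the seedlings, as a part of any result above, was not tested.

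Most called genotype differences had the same direction at each mock time. At 30 min 3274 probe sets were called (23.6%), at 1 h 3508 (25.3%) and at 3 h 3037 (21.9%), and of 1654 called at all 3 times 1651 had the same direction. Of the 5619 calls over the time course 97.7% had the same sign at each time. Those calls were chosen on the mean over these same arrays, so this agreement is in part set by the choice. For a change of the difference over time, limma called 0 of 13881 probe sets (0%), while 1666 had an unadjusted p under 0.05. DFR differed by 3.46, 3.63 and 3.41 at 30 min, 1 h and 3 h, and AT2G25510 by -5.92, -5.97 and -6.25. ICL differed by 3.37, 3.07 and 4.77, a spread that did not pass (adjusted p = 0.62). Counts at single times rest on 2 arrays per group. They were 2039 at 30 min without det2-1 replicate 2 of that time. At 1 h they were 1784 without ga1-5 replicate 2, 1918 without det2-1 replicate 1 and 2246 without det2-1 replicate 2, and at 3 h 1767 and 1685 without ga1-5 replicate 1 and 2. The count for change over time was 151 without ga1-5 1 h replicate 1, 1 without det2-1 30 min replicate 1 and 103 on the deposited scale. With array medians subtracted, the split at 1 h was 1170 higher and 2239 lower, against 1957 and 1551 after trimmed-mean scaling. At 30 min and 3 h it was 2058 and 1318, and 2064 and 1187, against 1604 and 1670, and 1552 and 1485.

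Seedlings given hormone were compared on arrays that share no sample with the mock arrays but come from the same lettered sets. Here ga1-5 received GA3 and det2-1 received BL, so genotype and hormone cannot be told apart in this comparison. In ga1-5 with GA3 against det2-1 with BL, 4938 probe sets were called (35.6%), 2603 higher (18.8%) and 2335 lower (16.8%). Of the mock calls 3929 were also called here, which is 69.9% of the mock calls and 79.6% of the calls with hormone, and 3918 of them kept their direction. Of the 868 mock calls of at least 1 on the log2 scale, 815 were called in the same direction. DFR differed by 3.18 with hormone and 3.50 in mock seedlings, and AT2G25450 by -6.40 with hormone and -6.16 in mock. The flavonoid list gave 5 calls upward of 5 with hormone as well, and the dehydration list 4 of 6, XERICO not among them. Nutrient transport genes gave 7 calls downward of 10. On the deposited scale the split with hormone was 3444 higher and 1095 lower.

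**Figure D4:**
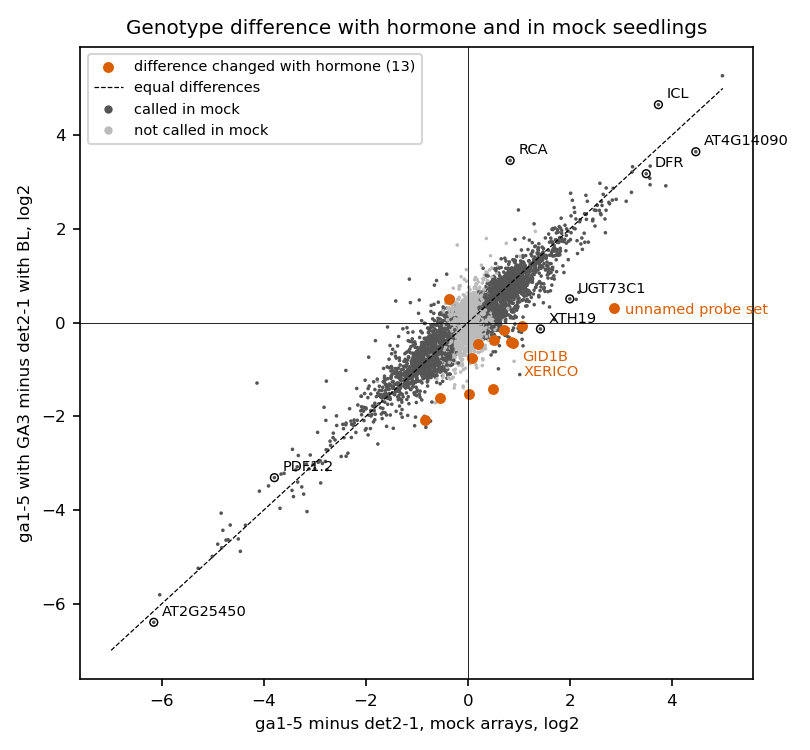
Difference with hormone, ga1-5 with GA3 minus det2-1 with BL (vertical axis, log2), against the difference in mock seedlings (horizontal axis, log2) for the tested probe sets. Dark points were called in mock, and the dashed line marks equal differences. Orange points are the 13 probe sets whose difference changed with hormone, among them GID1B and XERICO, and the unnamed probe set with the largest change of the 13.

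Of the 10 brassinosteroid-responsive genes, none was called higher and 2 lower with hormone, beside 18.8% higher and 16.8% lower over all probe sets. In mock seedlings 5 were higher and 3 lower, beside 21.9% and 18.6%. XTH19 was at -0.14 (adjusted p = 0.83) with hormone. In det2-1 its signal was 1463 to 21693 (median 2754) with BL and 988 to 2207 in mock seedlings, while in ga1-5 it was 3352 to 4708 with GA3 and 3987 to 4858 in mock. The high det2-1 values with BL came from the 3 h arrays. The change of its difference, -1.56 (SE 0.56), did not pass over the time course (adjusted p = 0.44), and neither did that of any other gene of the list. EXLA1 in det2-1 at 3 h had 5740 and 6126 with BL, and 581 and 392 in mock. The test took a single hormone effect over the 3 times, so it is weak for a change seen only at 3 h. It does not show that these genes did not change with BL.

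The test of a change in the ga1-5 minus det2-1 difference between hormone and mock, added after the data were seen, called 13 of 13881 probe sets (0.0937%), 12 of them negative. It joins the response of ga1-5 to GA3 and that of det2-1 to BL, and 1056 had an unadjusted p under 0.05. Mock and hormone arrays of the same set and replicate number were not paired in it, and pairing them left 8 calls. GID1B changed by -1.27 (SE 0.19, limma adjusted p = 0.00505), with a difference of -0.42 with hormone and 0.85 in mock seedlings. Its signal was 930 to 1948 (median 1131) in ga1-5 with GA3 and 1354 to 2054 (median 1820) in det2-1 with BL, so that the ga1-5 median lay below that of det2-1 with hormone, with overlapping arrays, and above it in mock. XERICO changed by -1.31 (SE 0.20, adjusted p = 0.00505) and had 1487 to 2499 (median 1671) in ga1-5 with GA3 and 1866 to 3659 (median 2241) in det2-1 with BL. A probe set with no gene name here, chosen after its values were seen, had the largest change of the 13 called, -2.56 (SE 0.44, adjusted p = 0.0152). It had 1009 to 7001 (median 1691) in ga1-5 with GA3 and 1271 to 2632 (median 1819) in det2-1 with BL, and 9763 to 11241 (median 10815) in ga1-5 mock and 1062 to 1887 (median 1393) in det2-1 mock. Its highest ga1-5 values with GA3 were those at 30 min. These 3 calls, and 1 more unnamed probe set at -1.92, held when each of the 24 arrays was left out (highest adjusted p 0.0163, 0.0163, 0.0393 and 0.0163) and under all other settings tried (highest 0.0212, 0.0156, 0.0253 and 0.0209). The total of 13 was less stable, with 5 without ga1-5 mock 1 h replicate 2, 6 without ga1-5 mock 3 h replicate 2 or GA3 3 h replicate 1. It was 7 when det2-1 BL 1 h replicate 2 was left out, and 8 when det2-1 mock 30 min replicate 2 or det2-1 BL 3 h replicate 2 was. Larger totals, 20 and 25, came from leaving out either GA3 30 min array of ga1-5, and 44 and 64 from leaving out replicate 1 or 2 of the det2-1 BL 30 min arrays. SLY1 changed by -0.71 and did not pass (adjusted p = 0.073).

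**Figure D5:**
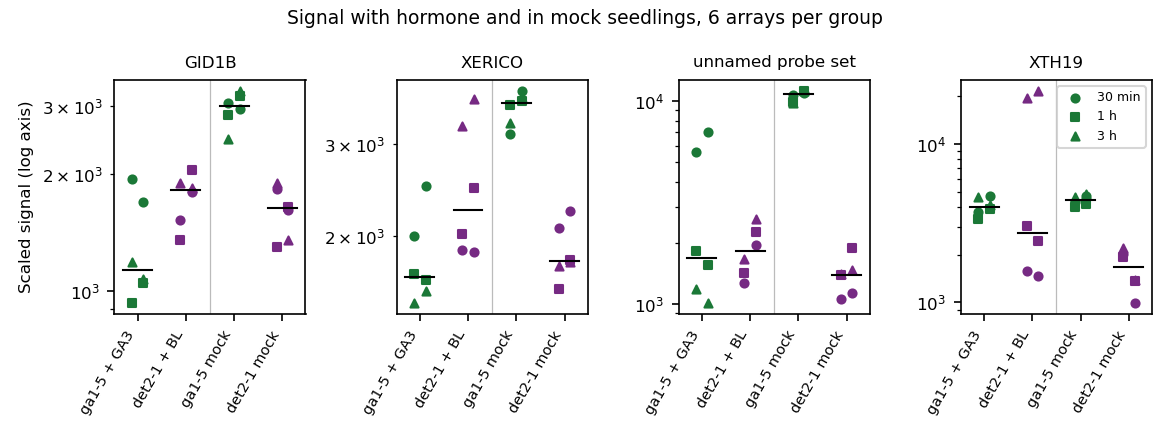
Scaled signal (vertical log axes) of GID1B, XERICO, the unnamed probe set and XTH19 on each array of ga1-5 with GA3, det2-1 with BL, ga1-5 mock and det2-1 mock, from left to right. Shapes give the time and bars the median of 6 arrays. For GID1B the median was 1131 in ga1-5 with GA3 and 1820 in det2-1 with BL, and 2995 in ga1-5 mock and 1633 in det2-1 mock.

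Col-0 mock arrays placed most of the large differences nearer to det2-1. Of the 419 probe sets higher in ga1-5 by at least 1 on the log2 scale, det2-1 was the nearer genotype to Col-0 in 291, and of the 449 lower ones in 402. DFR had 982 to 2000 (median 1498) in Col-0, beside 14590 to 19375 in ga1-5 and 1143 to 1844 in det2-1. XTH19 and FACT were among the exceptions, and FACT had 1227 to 1620 in Col-0, beside 1725 to 1930 in ga1-5 and 358 to 570 in det2-1. These placements are descriptions, as no comparison with Col-0 was tested and the share over all tested probe sets was not counted. The Col-0 mock arrays came from other lettered sets. Their deposited trimmed means, 887 to 1172, lay below those of both mutants before scaling.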

How the data were processed

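The authors deposited linear intensities, with a single value per probe set on each array, and per the submitters' processing notes used MAS5. Trimmed means of mock and hormone arrays with the same set and replicate number differed by at most 0.05. Groups and times came from the labels. Arrays were rescaled to equal 2% trimmed means. A probe set was tested if it exceeded an array's 40th percentile in 6 or more of the 12 (13881 of 22810, 64 controls left out). limma 3.58.1 in R 4.3.3 fitted log2(signal + 93), where 93 is 10% of the median, with time as a block (8 residual degrees of freedom) and an eBayes intensity trend. Single times used 1 mean per group (6 residual degrees of freedom). P-values were Benjamini-Hochberg adjusted at 0.05. The fits were tested on simulated data.

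Of the tested probe sets 7463 name 1 gene, 278 several and 6140 none. Of 307 list genes 191 were tested, and 9 of 52 lists had no named probe set. Members and lists were chosen with earlier results of these data known. The text names the 12 highest and 12 lowest differences among called, non-overlapping probe sets of 1 gene, the 2 members with the smallest adjusted p of each list with at least 4 tested genes, and other list members. Genes with a symbol and large differences were added after their values were seen. Alternatives were other scalings, pseudocounts of 2% and 50%, filters, variance models, blocks, more arrays in the fit and each array left out.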

Additional observations from a re-analysis of the deposited data

Results flagged for a closer look

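Of 146 sets of 6 arrays (73 genes in 2 genotypes), 5 held an array far from the others by Dixon's test at 95%, and chance flags about 1 in 20. AT5MAT had 3497 on ga1-5 1 h replicate 2, with 2532 to 2834 on the other ga1-5 arrays. LTI30 had 13639 on ga1-5 3 h replicate 2, with 7367 to 9263 on the others. UGT88A1 and CYP71B5 were both lowest on ga1-5 30 min replicate 1, at 2823 (others 3812 to 4206) and 346 (others 484 to 572). AT3G62550 had 3233 on det2-1 3 h replicate 2, with 5874 to 8258 on the other det2-1 arrays. For AT5MAT, LTI30, UGT88A1 and CYP71B5 the distant array lay on the side away from the other genotype. AT3G62550 was chosen by a rule that required no overlap, so its lack of overlap is no separate result.

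The difference between ga1-5 and det2-1 changed with hormone, by the test of the change itself, for GID1B (-1.27), XERICO (-1.31) and an unnamed probe set (-2.56). With hormone the differences were -0.42, -0.43 and 0.32, and in mock seedlings they were 0.85, 0.88 and 2.87.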

How the results depend on the processing

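Over all alternatives, the 5619 calls became 4940 (deposited scale) to 6048 (all 24 mutant arrays), and 5081 to 5462 with 1 array left out. Of 2830 repeated values of 118 named genes, 2730 kept their direction and side of the threshold, 96 kept the direction but lost the call, 4 gained it and none changed sign. The calls lost most often were those of XTH20, XTH18, XTH26, RCA, PYK10, CML38 and ATCSLC08. Leaving out 1 array gave 2039 to 3385 calls at 30 min, 1784 to 3599 at 1 h, 1685 to 3146 at 3 h, 0 to 151 for change over time, 4340 to 4877 with hormone and 5 to 64 for change with hormone. On the deposited scale there were 1594 calls at 30 min, 1685 at 3 h, 103 for change over time and 5 for change with hormone. Change over time gave 15 calls in the fit of all 72 arrays. Change with hormone gave 8 calls with array medians subtracted, 8 with quantile normalization and 20 with a pseudocount of 50%, and the causes were not tested. Deviations of same-numbered ga1-5 and det2-1 mock arrays correlated at -0.003, 0.10 and 0.11 at 30 min, 1 h and 3 h. The numbers were therefore not taken as pairs between the genotypes. These values do not bear on pairs of mock and hormone arrays from the same set. With the replicate block 5363 probe sets were called, 3208, 3441 and 2984 at the single times, 4349 with hormone and 8 for change with hormone. For change with hormone that block paired mock and hormone arrays of the same set and number. With the lettered set as a random block 5346 were called in mock seedlings and 3854 with hormone. Dim probe sets limit the size of differences that can be read.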
